A study of Homo sapiens with 12 samples.

Results

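Integrin subunits were followed in RNA-seq data from 4 derivatives of CWR22Rv1, an established human prostate carcinoma cell line derived from a xenograft that had relapsed after castration. The subunits were chosen by gene symbol as 10 epithelial integrin genes: the alpha subunits ITGA2, ITGA3, ITGA5, ITGA6 and ITGAV, and the beta subunits ITGB1, ITGB4, ITGB5, ITGB6 and ITGB8. Values for 9 of these 10 genes, among 13951 genes in all, are given below, and ITGB6 was not analysed here. The choice used gene names and no threshold on a measured value, and it was made with earlier results of these data known. The 12 libraries form 4 groups of 3. Control cells carried exogenous Cas9 without a guide RNA. LV-MEIS1 cells carried a lentivirus that expresses the homeobox factor MEIS1, and the sources used here do not say whether they also carried Cas9. HOXB13ko cells were a pool of several clonal lines in which Cas9 had been directed to the homeobox gene HOXB13, and HOXB13ko-LV-MEIS1 cells were that pool with the MEIS1 lentivirus added. All lines were grown in serum and puromycin and harvested after 48 h in culture, with no other treatment. Each group is 1 line or 1 pool, so the spread between its libraries, and every p-value below, measures repeat cultures and not independently made lines. The data were made to ask which genes MEIS1 changes in prostate cancer cells with HOXB13 and in cells without it.

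Integrins are heterodimers of 1 alpha and 1 beta chain that span the plasma membrane, bind extracellular matrix outside the cell and couple to the actin cytoskeleton, or to keratins, inside it. The pairing sets the ligand: ITGA2 with ITGB1 binds collagen, ITGA5 with ITGB1 binds fibronectin, ITGA3 with ITGB1 binds laminin, and ITGA6 binds laminin with either ITGB1 or ITGB4. ITGAV pairs with ITGB1, ITGB5, ITGB6 or ITGB8 to bind matrix proteins that carry the RGD tripeptide, including the latent form of TGF-beta. In the normal prostate, ITGA6 and ITGB4 form the hemidesmosomes that hold basal epithelial cells to the basement membrane. Messenger RNA levels do not show which heterodimers form or reach the cell surface.

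The values are CPM, reads of a gene scaled to the total of its library. Estimated depth ran from 17200000 to 28700000 reads per library, and 3 reads corresponded to 0.105 to 0.175 CPM. The fewest reads estimated behind a library's value were 57 for ITGB4, 60 for ITGA6 and 74 for ITGB8, whereas ITGB1 never had fewer than 4027. These 3 low subunits therefore carry the widest intervals below. Libraries of a group correlated at 0.990 to 0.995 (Pearson r of log2 values across genes), and those of different groups at up to 0.994. MEIS1 was at 4.25 ± 0.20 CPM in Control (SD, n = 3 here and below), 47.4 ± 1.96 in LV-MEIS1, 3.56 ± 0.12 in HOXB13ko and 29.8 ± 0.37 in HOXB13ko-LV-MEIS1. HOXB13 mRNA went against the knockout label, with 196 ± 17.1, 151 ± 0.77, 327 ± 20.1 and 354 ± 25.1 CPM in the same order. The knockout had been checked on protein by the study, and reads over a gene do not show whether its protein is made, so these groups are called the libraries labelled HOXB13ko. Values were obtained for 7 of 7 luminal epithelial markers, 0 of 5 basal markers, 4 of 8 stromal markers and 0 of 7 endothelial and leukocyte markers.

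Promoter sequences from RefSeq (GRCh38.p14) were matched for 7 of the 9 subunits, with 12 annotated starts among them; ITGA3 and ITGB4 had no entry. The 250 bases before the start are printed for 3 subunits that moved in different ways below: ITGA5, which was higher in LV-MEIS1, ITGA6, which was lower there, and ITGB5, which was highest in Control. For each, the window is that of the start farthest upstream, and capitals mark matches to the motifs searched on both strands.
ITGA5, chr12:54419267-54419516, minus strand: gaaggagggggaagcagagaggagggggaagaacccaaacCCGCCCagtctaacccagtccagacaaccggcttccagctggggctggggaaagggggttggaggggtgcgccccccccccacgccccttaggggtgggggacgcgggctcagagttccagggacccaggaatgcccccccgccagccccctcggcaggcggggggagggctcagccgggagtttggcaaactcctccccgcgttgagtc
ITGA6, chr2:172427086-172427335, plus strand: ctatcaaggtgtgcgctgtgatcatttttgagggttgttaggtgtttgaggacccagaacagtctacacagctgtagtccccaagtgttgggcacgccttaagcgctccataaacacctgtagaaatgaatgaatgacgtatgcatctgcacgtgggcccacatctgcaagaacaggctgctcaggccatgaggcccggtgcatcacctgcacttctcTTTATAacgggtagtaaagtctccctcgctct
ITGB5, chr3:124901419-124901668, minus strand: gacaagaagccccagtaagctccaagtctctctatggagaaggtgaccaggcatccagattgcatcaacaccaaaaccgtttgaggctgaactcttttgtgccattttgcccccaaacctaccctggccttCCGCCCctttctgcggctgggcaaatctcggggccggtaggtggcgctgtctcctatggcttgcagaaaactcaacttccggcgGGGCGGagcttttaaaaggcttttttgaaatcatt
The motifs were TGACAG, the core bound by MEIS proteins, CAATAAA and CGTAAA, forms bound by HOX proteins of the HOXB13 type, TGANTCA, the AP-1 site, the GC box GGGCGG and the TATA box TATAAA. None of the 12 windows held the letters of the MEIS, HOX or AP-1 motifs. Of all 35116 promoter windows of this length, 13.0% hold TGACAG and 3.66% hold CAATAAA. The share is 2.68% for CGTAAA and 6.57% for TGANTCA. The ITGA5 window held 1 GC box (CCGCCC as read on this strand) 210 bases before the start, and the ITGB5 window printed held 2. Among the other ITGB5 starts, the window chr3:124887366-124887615 held 3 GC boxes and chr3:124887685-124887934 held no match. GC boxes occur in 42.6% of all windows. The ITGA6 window held a TATA-like match on the opposite strand 32 bases before the start, a motif found in 10.7% of all windows, and a second ITGA6 start 250 bases downstream had 3 GC boxes and no TATA match. A match in these letters is a description, and the windows say nothing about sites elsewhere in the genes.

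ITGB1 and its collagen and fibronectin partners were all higher with MEIS1 in the line without the knockout. ITGB1 (chromosome 10, 32887273 to 33005792, minus strand, GRCh38) encodes the beta subunit shared by the largest group of integrins. Its level was 234, 212 and 218 CPM in the Control libraries and 305, 303 and 296 CPM in LV-MEIS1. In the libraries labelled HOXB13ko it was 239, 235 and 261 CPM, and in HOXB13ko-LV-MEIS1 it was 262, 270 and 266 CPM. All 4 groups were apart from their neighbours in level, with LV-MEIS1 highest and Control lowest. The lowest HOXB13ko library (235.1 CPM) was only just above the highest of Control (234.4), where 44.9% of all genes were apart. The lowest HOXB13ko-LV-MEIS1 library (261.8) was only just above the highest of HOXB13ko (260.6), where 21.1% were apart. The difference between LV-MEIS1 and Control was 0.45 ± 0.05 (log2 fold change on the CPM + 0.5 scale, SE), or 1.36-fold, with an adjusted p of 8.05e-06 in limma's moderated test against no change.

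ITGA5 (chromosome 12, 54395261 to 54419266, minus strand) encodes the alpha chain of the fibronectin receptor. It stood at 16.4, 17.5 and 17.0 CPM in Control and at 30.7, 29.3 and 31.2 CPM in LV-MEIS1. The libraries labelled HOXB13ko gave 18.7, 19.6 and 16.7 CPM, and HOXB13ko-LV-MEIS1 gave 18.9, 21.2 and 19.3 CPM. LV-MEIS1 thus stood alone, and the ranges of HOXB13ko overlapped those of Control and of HOXB13ko-LV-MEIS1. The rise in LV-MEIS1 was 0.82 ± 0.08 on the log2 scale, 1.77-fold (adjusted p = 7.84e-07). Against a 1.5-fold change, tested with limma's treat, the adjusted p was 0.0787.

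ITGA2 (chromosome 5, 52989340 to 53094779, plus strand), the alpha chain of a collagen receptor, was at 25.9, 22.6 and 25.6 CPM in Control. It was at 31.8, 33.7 and 32.1 CPM in LV-MEIS1, 29.5, 31.2 and 35.4 CPM in the libraries labelled HOXB13ko, and 33.4, 30.9 and 28.3 CPM in HOXB13ko-LV-MEIS1. The 9 libraries outside Control overlapped each other and lay above it. The rise over Control was 0.39 ± 0.08 in LV-MEIS1 (adjusted p = 0.00147) and 0.37 ± 0.08 in HOXB13ko (adjusted p = 0.00413), and these comparisons share the Control libraries.

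The laminin receptor chains did not move together. ITGA3 (chromosome 17, 50055968 to 50090481, plus strand) was at 25.5, 26.7 and 26.0 CPM in Control and 32.95, 28.3 and 30.6 CPM in LV-MEIS1. It was at 18.7, 20.7 and 17.4 CPM in the libraries labelled HOXB13ko and at 17.4, 19.2 and 19.5 CPM in HOXB13ko-LV-MEIS1. The order was LV-MEIS1, Control and then both knockout-labelled groups, which overlapped each other. ITGA3 rose by 0.23 ± 0.08 in LV-MEIS1 (adjusted p = 0.0336) and fell by 0.46 in HOXB13ko (SE 0.08, adjusted p = 0.000767). The rise was lost in 5 of the 12 fits that each left out 1 library, where the adjusted p reached 0.134 without LV-MEIS1 replicate 1.

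ITGA6 (chromosome 2, 172427354 to 172506459, plus strand) and ITGB4 (chromosome 17, 75721328 to 75757818, plus strand) encode the chains of the hemidesmosome integrin, and they went in opposite directions. ITGA6 was at 5.47, 4.84 and 5.09 CPM in Control and at 3.32, 3.09 and 2.89 CPM in LV-MEIS1. It was at 7.80, 7.96 and 9.34 CPM in the libraries labelled HOXB13ko and at 8.65, 8.43 and 8.53 CPM in HOXB13ko-LV-MEIS1. LV-MEIS1 was lowest, Control was next, and the knockout-labelled groups were highest and overlapped each other. ITGA6 fell by 0.65 in LV-MEIS1 (log2, SE 0.10, adjusted p = 0.000178) and rose by 0.65 ± 0.10 in HOXB13ko (adjusted p = 0.000354).

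ITGB4 was at 3.32, 3.01 and 3.48 CPM in Control and at 6.66, 6.38 and 7.22 CPM in LV-MEIS1, with every LV-MEIS1 library above every other library. The libraries labelled HOXB13ko were at 3.21, 3.08 and 2.39 CPM and those of HOXB13ko-LV-MEIS1 at 3.15, 2.73 and 2.59 CPM. These 2 groups overlapped each other and Control. The rise of ITGB4 in LV-MEIS1 was 0.94 ± 0.13, or 1.92-fold (adjusted p = 4.42e-05 in the moderated test and 0.156 in treat). In HOXB13ko against Control it changed by -0.16 ± 0.13 (adjusted p = 0.365).

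ITGAV (chromosome 2, 186590010 to 186680901, plus strand), the alpha chain of the RGD receptors, was at 83.4, 65.0 and 69.5 CPM in Control and at 96.7, 103 and 96.7 CPM in LV-MEIS1. The libraries labelled HOXB13ko were at 93.1, 96.1 and 108 CPM and HOXB13ko-LV-MEIS1 at 98.0, 92.8 and 95.5 CPM. As for ITGA2, Control was lowest and the other groups overlapped. ITGAV rose by 0.45 ± 0.08 in LV-MEIS1 (adjusted p = 0.000418) and by 0.45 ± 0.08 in HOXB13ko (adjusted p = 0.000822).

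The beta partners of ITGAV took separate courses. ITGB5 (chromosome 3, 124761948 to 124901418, minus strand), which with ITGAV forms a vitronectin receptor, was at 118, 130 and 109 CPM in Control and at 107, 91.7 and 96.6 CPM in LV-MEIS1. It was at 78.1, 74.5 and 74.0 CPM in the libraries labelled HOXB13ko and at 77.0, 75.6 and 87.0 CPM in HOXB13ko-LV-MEIS1. Control was highest, LV-MEIS1 was next, and the knockout-labelled groups overlapped below them. ITGB5 fell by 0.27 in LV-MEIS1 (log2, SE 0.07, adjusted p = 0.00832) and fell by 0.65 in HOXB13ko (SE 0.07, adjusted p = 2.06e-05).

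ITGB8 (chromosome 7, 20330702 to 20415754, plus strand), which with ITGAV binds and activates latent TGF-beta, was at 8.75, 7.32 and 9.29 CPM in Control and at 12.4, 11.5 and 10.4 CPM in LV-MEIS1. It was at 4.10, 4.83 and 4.90 CPM in the libraries labelled HOXB13ko and at 5.09, 4.002 and 3.73 CPM in HOXB13ko-LV-MEIS1. The order was LV-MEIS1, Control and then the knockout-labelled groups, which overlapped each other. ITGB8 rose by 0.42 ± 0.13 in LV-MEIS1 (adjusted p = 0.0161) and fell by 0.81 in HOXB13ko (SE 0.13, adjusted p = 0.000379). The rise in LV-MEIS1 was lost without Control replicate 2 (0.33, adjusted p = 0.0785) or LV-MEIS1 replicate 1 (0.36, adjusted p = 0.0629).

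**Figure D1:**
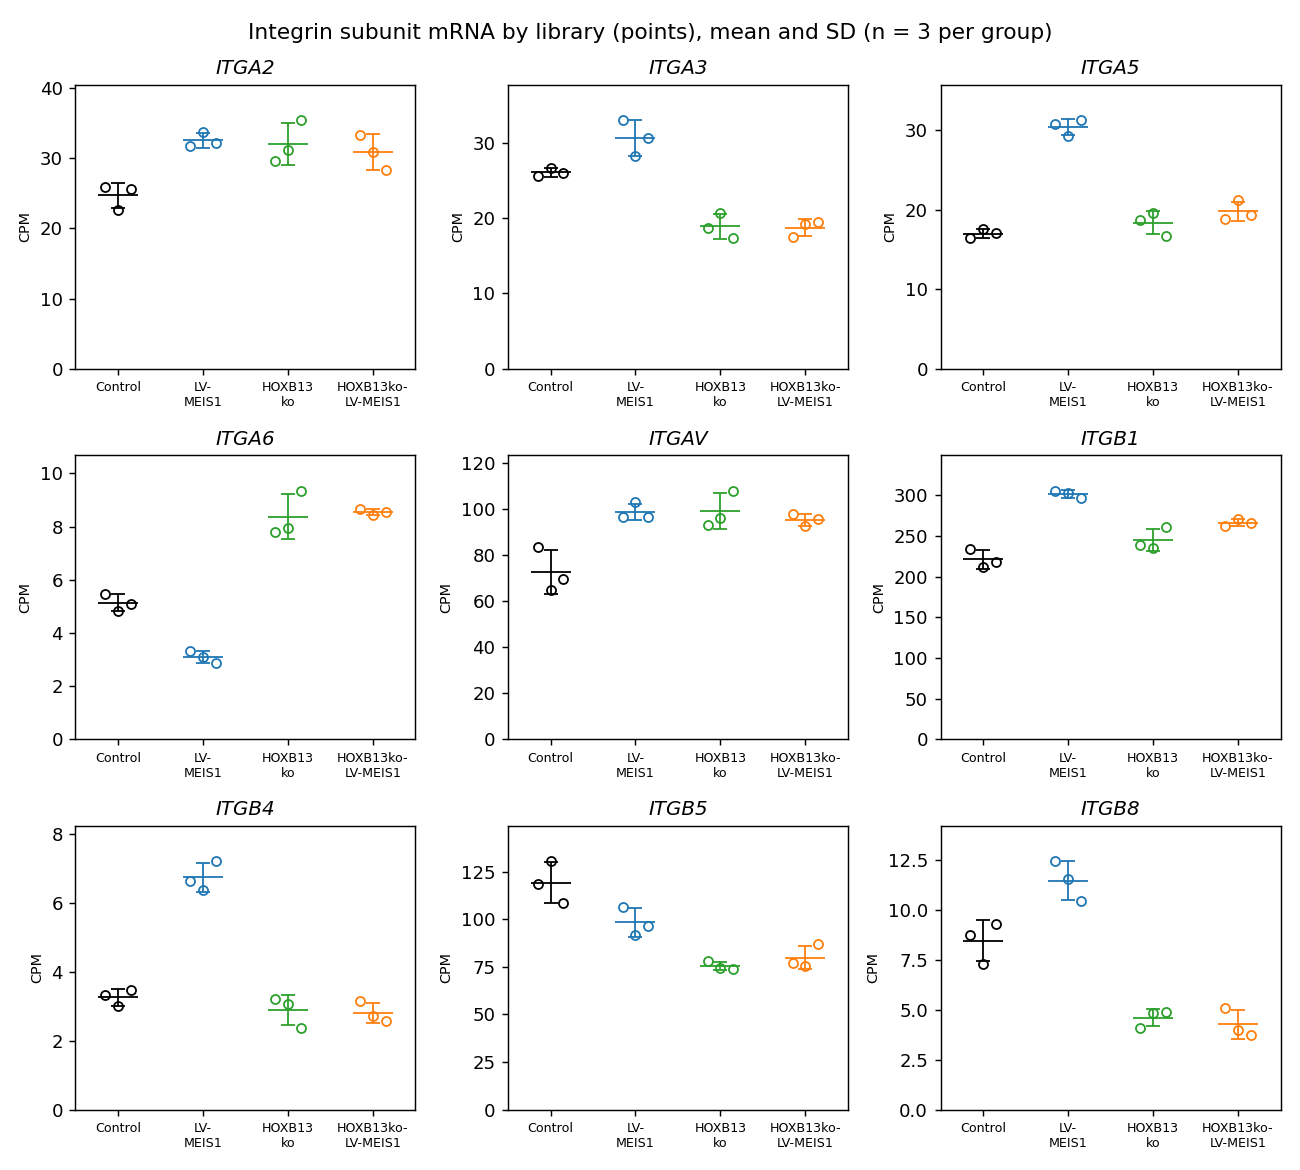
CPM of each of the 9 integrin subunits (y axis, from 0) in the 4 groups (x axis). Open circles are libraries, the horizontal mark is the group mean and the bars are the SD (n = 3). LV-MEIS1 stands above the other 3 groups for ITGA3, ITGA5, ITGB1, ITGB4 and ITGB8 and below them for ITGA6. The ranges of both knockout-labelled groups overlap in every panel but that of ITGB1.

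Counted over the subunits, 9 of 9 passed the moderated test in LV-MEIS1 against Control, against 44.5% of all genes. ITGA2, ITGA3, ITGA5, ITGAV, ITGB1, ITGB4 and ITGB8 were higher, 7 of 9 against 23.2% of all genes, and ITGA6 and ITGB5 were lower, 2 of 9 against 21.3%. The median log2 fold change was 0.42 over the subunits and 0.0073 over all genes. With treat, 0 of 9 passed (3.99% of all genes), and ITGA5 and ITGB4 had an unadjusted treat p under 0.05 (6.49% of all genes). The ranges of the 2 groups did not overlap for any of the 9 subunits, as for 51.3% of all genes. In a bulk library, a lower share of expressing cells and less RNA in each cell cannot be told apart.

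In HOXB13ko against Control, 7 of 9 subunits passed the moderated test, against 32.9% of all genes. ITGA2, ITGA6, ITGAV and ITGB1 were higher, 4 of 9 against 16.5%, and ITGA3, ITGB5 and ITGB8 were lower, 3 of 9 against 16.4%. ITGB1 rose by 0.14 ± 0.05 (adjusted p = 0.0426), a call lost under quantile normalisation (adjusted p = 0.116), with only these 2 groups in the fit (0.0957) and in 10 of the 12 fits that left out a library (up to 0.203, without HOXB13ko replicate 3). ITGA5 changed by 0.10 ± 0.08 (adjusted p = 0.299). None of the 9 passed treat (1.41% of all genes), and none had an unadjusted treat p under 0.05 (2.71%). The ranges were apart for 7 of 9 subunits and for 44.9% of all genes, and the subunits' median was 0.10.

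Adding MEIS1 to the pool labelled HOXB13ko gave 0 of 9 calls in the moderated test, which called 0.0502% of all genes, and 0 of 9 in treat (0.00717%). At an unadjusted p under 0.05 the moderated test held 1 subunit, ITGB1 (14.8% of all genes), and treat held 0 (0.0645%). The log2 fold changes ran from -0.11 for ITGB8 to 0.12 for ITGB1, and their 95% intervals from -0.38 to 0.27, so that each interval left out a change of 1.5-fold, 0.585 on this scale. ITGB1, at 0.12 ± 0.05, had an adjusted p of 0.296 and was the 1 subunit whose groups did not overlap (21.1% of all genes). MEIS1 itself was 2.90 ± 0.07 higher in this comparison and 3.33 ± 0.07 higher in LV-MEIS1 against Control, and the part of that difference in the result was not tested.

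The difference between the MEIS1 effects in the 2 pairs of lines was tested directly. It passed the moderated test for 8 of 9 subunits, against 34.2% of all genes, and the test uses the same LV-MEIS1 and Control libraries as above. The pairs are unlike: HOXB13ko-LV-MEIS1 was made from the HOXB13ko pool, whereas it is not known whether LV-MEIS1 carried Cas9 as Control did. With 1 line or pool per group, an effect of MEIS1 cannot be told apart from other differences between lines. The effect in LV-MEIS1 against Control was the more positive for ITGB4 by 0.97 ± 0.18 (adjusted p = 0.00126), for ITGA5 by 0.71 ± 0.11 (0.000181), for ITGB8 by 0.53 ± 0.18 (0.0381), for ITGAV by 0.50 ± 0.11 (0.00394), for ITGA2 by 0.45 ± 0.12 (0.00957) and for ITGB1 by 0.33 ± 0.07 (0.00361). These are 6 of 9, against 18.0% of all genes. It was the more negative for ITGA6 by -0.68 ± 0.15 (adjusted p = 0.00305) and for ITGB5 by -0.35 ± 0.11 (0.0199), 2 of 9 against 16.2%. ITGA3 differed by 0.24 ± 0.11 (adjusted p = 0.12). With treat 0 of 9 passed (2.93% of all genes), and ITGB4 had an unadjusted treat p under 0.05 (6.16%).
The ITGB8 difference was lost under quantile normalisation (0.40, adjusted p = 0.108) and in 7 of the 12 fits without a library, to an adjusted p of 0.0957 without Control replicate 2. That of ITGB5 was lost without LV-MEIS1 replicate 2 (adjusted p = 0.054) or HOXB13ko-LV-MEIS1 replicate 3 (0.0536).

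Between the 2 lines that carry the MEIS1 lentivirus, the knockout-labelled one had more ITGA6 and less of 6 other subunits. In HOXB13ko-LV-MEIS1 against LV-MEIS1, ITGA6 rose by 1.33 ± 0.10, or 2.51-fold (treat adjusted p = 7.09e-05). ITGB8 fell by 1.33 (SE 0.13, treat adjusted p = 0.000565) and ITGB4 fell by 1.13 (SE 0.13, treat adjusted p = 0.0082). These 3 of 9 passed treat, against 6.71% of all genes. The moderated test also called the falls of ITGA3 (-0.69 ± 0.08, adjusted p = 5.65e-06), ITGA5 (-0.61 ± 0.08, 1.06e-05), ITGB5 (-0.30 ± 0.07, 0.00421) and ITGB1 (-0.18 ± 0.05, 0.00885), so that 7 of 9 passed it, against 50.1% of all genes. One was higher (24.0% of all genes) and 6 were lower (26.1%). ITGA2 (-0.08 ± 0.08, adjusted p = 0.447) and ITGAV (-0.05 ± 0.08, 0.63) did not pass. The ranges were apart for 7 of 9 subunits and for 58.3% of all genes. MEIS1 was lower here too, by -0.66 ± 0.07 (moderated adjusted p = 4.35e-06), and its part was not tested.

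**Figure D2:**
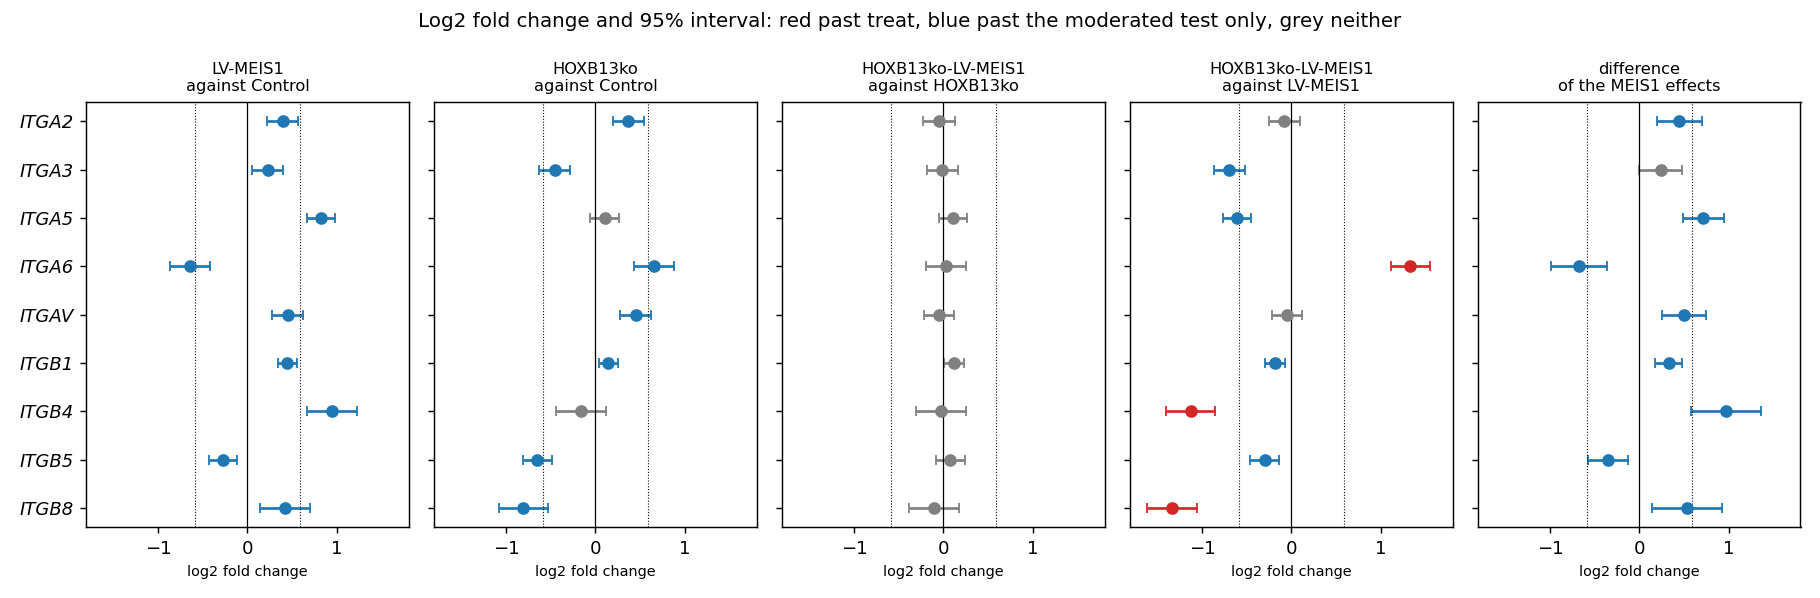
Log2 fold change (x axis) with its 95% interval for the 9 subunits (y axis) in 5 comparisons. Dotted lines mark a 1.5-fold change, red points passed treat, blue points passed only the moderated test and grey points passed neither. In HOXB13ko-LV-MEIS1 against HOXB13ko all points are grey and near 0, and in HOXB13ko-LV-MEIS1 against LV-MEIS1 those of ITGA6, ITGB4 and ITGB8 are red.

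Levels of different subunits were compared per kilobase of the canonical GENCODE transcript. In Control the beta chains ITGB1 (59.3 ± 3.12 CPM per kb) and ITGB5 (26.8 ± 2.43) were highest, followed by ITGAV (10.3 ± 1.36), ITGA3 (5.33 ± 0.12), ITGA5 (3.996 ± 0.13) and ITGA2 (3.15 ± 0.23). ITGB8 (0.942 ± 0.11), ITGA6 (0.882 ± 0.05) and ITGB4 (0.554 ± 0.04) were lowest, and the ranges of ITGB8 and ITGA6 overlapped. Set per kilobase of all annotated exons instead, Control gave 15.2 for ITGB1 and 18.3 for ITGB5, so the order of these 2 chains depends on the transcript length used. So do those of ITGA2 (3.13), ITGA3 (2.66) and ITGA5 (2.30), and of ITGA6 (0.768) and ITGB8 (0.558).

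Shares of the alpha and of the beta level, each summed only over the subunits followed here, also shifted. ITGAV made up 43.5% ± 3.21 of the summed alpha level per kb in Control, 43.7% ± 1.60 in LV-MEIS1, 50.6% ± 2.08 in HOXB13ko and 49.4% ± 1.26 in HOXB13ko-LV-MEIS1. ITGA5 made up 16.9% ± 1.49, 22.3% ± 0.77, 15.6% ± 1.71 and 17.0% ± 1.06 in the same order, and ITGA6 3.73% ± 0.03, 1.66% ± 0.11, 5.17% ± 0.34 and 5.35% ± 0.07. ITGB1 made up 67.7% ± 2.38 of the beta level in Control and between 76.7% and 79.0% in the other groups, as ITGB5 went from 30.6% ± 2.55 to between 19.9% and 21.0%. The sums leave out other measured alpha chains, among them ITGAE, ITGA7 and ITGA1 at 16.1, 15.8 and 9.47 CPM in Control. They are thus not shares of all alpha or beta mRNA. These shares are descriptions that depend on the lengths and subunits used and were not tested.

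**Figure D3:**
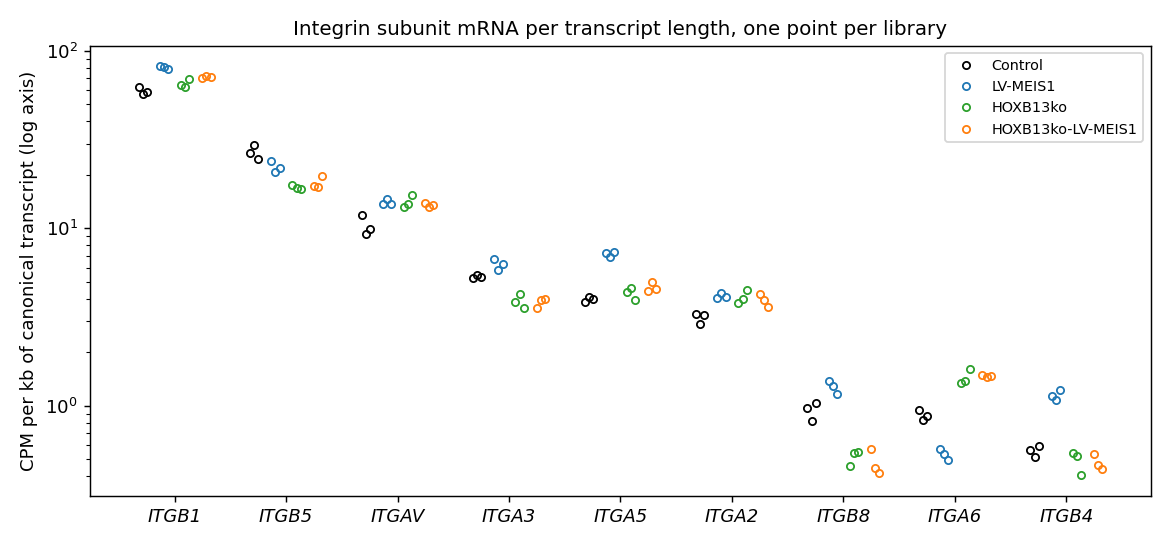
CPM per kb of canonical transcript on a log axis for the 9 subunits, ordered by their Control level, with 1 point per library and 1 colour per group. ITGB1 and ITGB5 are highest, and ITGB8, ITGA6 and ITGB4 lie lowest, where the groups are farthest apart.

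Ratios between partner chains were taken within each library. The printed ratios are of CPM, and the tested differences are of log2(CPM + 0.5), which pulls ratios of low genes towards 0. The ratio of ITGA6 to ITGB4 in CPM was 1.46 to 1.65 in Control, 0.400 to 0.499 in LV-MEIS1, 2.43 to 3.91 in HOXB13ko and 2.75 to 3.29 in HOXB13ko-LV-MEIS1. LV-MEIS1 was below Control, and both lay below the knockout-labelled groups, which overlapped. The difference in log2 ratio was -1.59 for LV-MEIS1 against Control, 0.81 for HOXB13ko against Control and 2.46 for HOXB13ko-LV-MEIS1 against LV-MEIS1. Each had p = 0.10 in a two-sided exact permutation test, the smallest that 3 against 3 libraries allow, and 0.16 after adjustment over 16 tests. For HOXB13ko-LV-MEIS1 against HOXB13ko the difference was 0.06 (exact p = 0.8).

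ITGAV was followed over its beta partners in the same way. Its ratio to ITGB8 was 8.63 ± 1.05 in Control, 8.65 ± 0.77 in LV-MEIS1, 21.5 ± 1.45 in HOXB13ko and 22.7 ± 3.21 in HOXB13ko-LV-MEIS1. Its ratio to ITGB5 was 0.615 ± 0.11, 1.01 ± 0.11, 1.31 ± 0.14 and 1.20 ± 0.09 in the same order. Control was lowest for this ratio, and it did not overlap any other group. The ratio to ITGB1 was 0.327 ± 0.03 in Control, 0.328 ± 0.01 in LV-MEIS1, 0.404 ± 0.01 in HOXB13ko and 0.359 ± 0.02 in HOXB13ko-LV-MEIS1. The differences against Control again reached at best p = 0.10 in the exact permutation test, 0.16 adjusted.

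**Figure D4:**
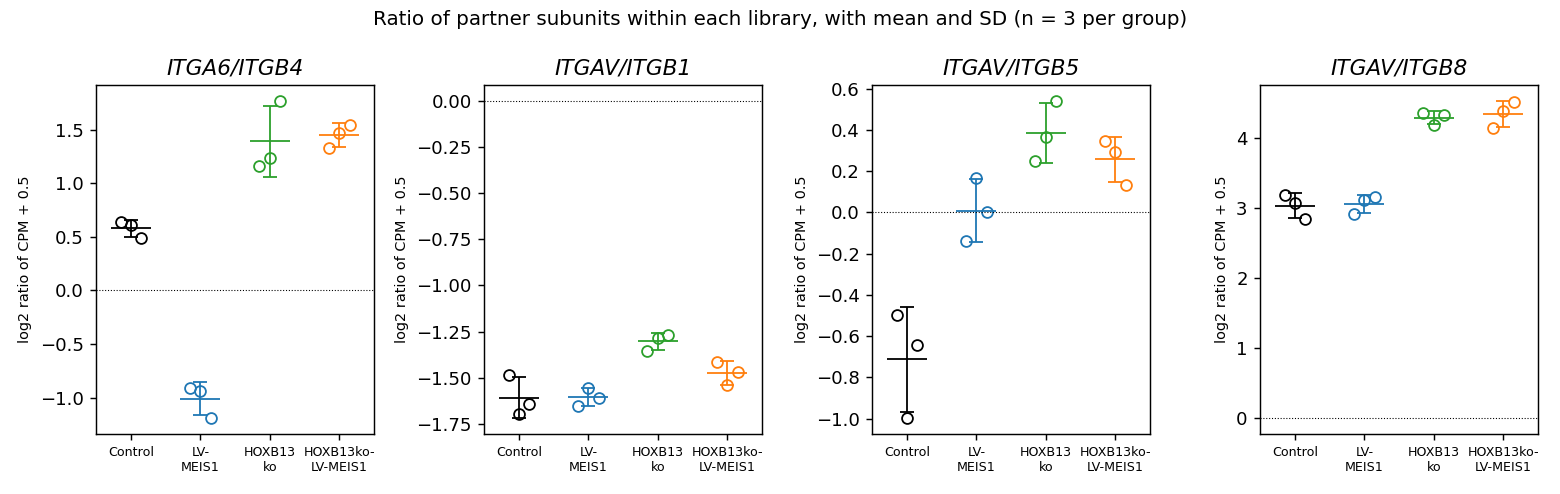
Log2 ratio of CPM + 0.5 between partner subunits (y axis) in the 4 groups (x axis), with libraries as open circles, and mean and SD (n = 3). For ITGA6/ITGB4 the LV-MEIS1 libraries lie below 0 and all others above it, and for ITGAV/ITGB8 both knockout-labelled groups lie above 4.

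The wider integrin pathway was described with lists of genes other than the subunits above. Of 16 further integrin subunits, 8 had values. In LV-MEIS1 against Control, 4 of these 8 rose in the moderated test: ITGA2B, which encodes a platelet integrin chain, and ITGA1, ITGA7 and ITGA10, the last 3 named after their values were seen. This is set against 23.2% of all genes higher and 21.3% lower. None of the 8 fell, and the list's median log2 fold change was 0.28, against 0.0073 for all genes. The ITGA10 call was lost with a pseudocount of 0.1 (adjusted p = 0.0574) and in 6 of the 12 fits without a library (up to 0.165, without Control replicate 2). ITGA2B rose from 2.65 ± 0.03 to 4.56 ± 0.16 CPM and was at 2.03 ± 0.07 and 1.92 ± 0.53 CPM in HOXB13ko and HOXB13ko-LV-MEIS1. It passed treat in HOXB13ko-LV-MEIS1 against LV-MEIS1 (-1.09 ± 0.15, adjusted p = 0.0395), a call lost with a pseudocount of 1 (adjusted p = 0.0968), under quantile normalisation (0.159), with only these groups in the fit (0.101) and in 9 of the 12 fits without a library, to an adjusted p of 0.214 without HOXB13ko-LV-MEIS1 replicate 3.

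Among 17 measured integrin ligands of 24 listed, 11 rose and 2 fell in LV-MEIS1 against Control in the moderated test (23.2% and 21.3% of all genes), with a median log2 fold change of 0.39. The list holds TGF-beta genes beside matrix proteins. COL1A1, a fibrillar collagen chain, rose from 14.5 ± 1.10 to 32.8 ± 2.46 CPM (1.15 ± 0.08, treat adjusted p = 0.000247). NPNT, nephronectin, rose from 47.3 ± 3.65 to 94.5 ± 5.41 CPM (0.99 ± 0.07, treat adjusted p = 0.00112), and LAMB1, a laminin chain, rose from 31.4 ± 0.76 to 54.7 ± 1.18 CPM (0.79 ± 0.06, treat adjusted p = 0.0356). These 3 of 17 passed treat in the higher direction, against 1.75% of all genes. The LAMB1 call was lost with only these 2 groups in the fit (adjusted p = 0.0987) and in 7 of the 12 fits without a library (up to 0.147, without LV-MEIS1 replicate 2). TNC and THBS1 were the 2 ligands that fell, TNC being named after its values were seen.

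FN1, which encodes fibronectin, the ligand of the receptor that ITGA5 and ITGB1 form, had a level of 46.7 ± 1.97, 75.0 ± 3.03, 16.2 ± 1.68 and 12.3 ± 1.30 CPM in the 4 groups, Control first, then LV-MEIS1, HOXB13ko and last HOXB13ko-LV-MEIS1. These groups did not overlap. FN1 rose by 0.68 ± 0.08 in LV-MEIS1 in the moderated test (adjusted p = 1.88e-05) and fell by 1.504 in HOXB13ko (SE 0.08, treat adjusted p = 6.12e-06). THBS1, thrombospondin, was lower in LV-MEIS1 and higher in HOXB13ko than in Control, with 15.0 ± 1.78, 10.5 ± 1.20, 41.2 ± 0.68 and 33.6 ± 1.27 CPM in the 4 groups. Its rise in HOXB13ko was 1.43 ± 0.09 (treat adjusted p = 3.12e-05). In HOXB13ko against Control 3 of the 17 ligands rose (16.5% of all genes) and 6 fell (16.4%) in the moderated test, and FN1 and THBS1 were the 2 that passed treat (1.41%).

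In HOXB13ko-LV-MEIS1 against LV-MEIS1, 4 of the 17 ligands rose and 11 fell in the moderated test (24.0% and 26.1% of all genes), with a median log2 fold change of -0.74. Treat called 8 of them, THBS1 higher by 1.64 ± 0.09 (adjusted p = 4.53e-07) and 7 lower (3.42% of all genes). The 7 were FN1 (-2.57 ± 0.08, adjusted p = 1.59e-10), NPNT (-1.38 ± 0.07, 6.72e-07), TGFB1 (-1.31 ± 0.10, 6.62e-05), COL1A1 (-0.98 ± 0.08, 0.00345), LAMA5 (-0.89 ± 0.07, 0.00932), LAMB2 (-0.81 ± 0.07, 0.0423) and LAMB1 (-0.81 ± 0.06, 0.0145). TGFB1 encodes the cytokine whose latent form ITGAV integrins bind, and the others are matrix proteins. The LAMB2 call was lost with libraries scaled by the median of ratios (adjusted p = 0.0556) and in 7 of the 12 fits without a library, to an adjusted p of 0.247 without LV-MEIS1 replicate 3. LAMB1 was lost in 3 of them, to 0.0853 without HOXB13ko-LV-MEIS1 replicate 3, and LAMA5 in 2, to 0.0652 without LV-MEIS1 replicate 3.

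Of 9 hemidesmosome genes 4 had values, and LAMA3, a chain of the laminin that ITGA6 and ITGB4 bind, was the 1 that passed treat in any comparison. It was at 2.55 ± 0.01 CPM in Control, 7.41 ± 1.04 in LV-MEIS1, 1.70 ± 0.64 in HOXB13ko and 1.81 ± 0.39 in HOXB13ko-LV-MEIS1. Its rise in LV-MEIS1 was 1.37 ± 0.20 (treat adjusted p = 0.0224, lost in 5 of the 12 fits without a library, to 0.116 without LV-MEIS1 replicate 2). In HOXB13ko-LV-MEIS1 against LV-MEIS1 it fell by 1.78 (SE 0.20, treat adjusted p = 0.000431). In LV-MEIS1, DST also rose (0.42 ± 0.10, adjusted p = 0.00416) and PLEC fell in the moderated test, both named after their values were seen, and both encode plakins that link integrins to keratins. Of the 4 genes, 2 thus rose and 1 fell there, against 23.2% and 21.3% of all genes. In HOXB13ko against Control, 1 of the 4 rose and 2 fell in the moderated test (16.5% and 16.4% of all genes). DST rose by 0.78 ± 0.10 (adjusted p = 7.53e-05), whereas PLEC (-0.23 ± 0.06, 0.00723) and CD151 (-0.38 ± 0.09, 0.0041) fell. CD151 was named after its values were seen. LAMA3 was at -0.52 ± 0.20 in that comparison (adjusted p = 0.0599).

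Inside the cell, 21 of 22 genes of the adhesion complex had values, and 4 rose and 7 fell in LV-MEIS1 against Control in the moderated test, against 23.2% and 21.3% of all genes. The median of the list was -0.06. PXN, which encodes the scaffold paxillin, fell from 181 ± 12.2 to 92.3 ± 1.45 CPM and was at 182 ± 7.86 and 189 ± 7.63 CPM in HOXB13ko and HOXB13ko-LV-MEIS1. Its change of -0.96 ± 0.06 passed treat (adjusted p = 0.000188), as did its difference of the MEIS1 effects (-1.02 ± 0.08, adjusted p = 0.00216). For that difference, treat called 1 of 21 adhesion complex genes, 4 of 17 ligands and 1 of 10 membrane partners, against 2.93% of all genes. FN1 was among the ligands called, and its call was lost in 8 of the 12 fits without a library (adjusted p up to 0.0731). PARVB, beta-parvin, fell from 73.5 ± 4.82 to 42.4 ± 1.39 CPM (-0.78 ± 0.06, treat adjusted p = 0.0396). That call was lost with a pseudocount of 1 (adjusted p = 0.0512), with libraries scaled to an equal sum (0.0741), with only these groups in the fit (0.155) and in 10 of the 12 fits without a library (up to 0.208, without Control replicate 2). ZYX, zyxin, was at 40.1 ± 3.72, 54.2 ± 2.45, 25.4 ± 1.94 and 26.6 ± 1.35 CPM in the 4 groups and passed treat in HOXB13ko-LV-MEIS1 against LV-MEIS1 (-1.02 ± 0.08, adjusted p = 0.000824).

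All 4 listed integrin inhibitors were measured, and SHARPIN, which holds ITGB1 integrins inactive, fell by 0.35 in LV-MEIS1 (SE 0.10, moderated adjusted p = 0.0096, and 0.0525 without LV-MEIS1 replicate 2) as the only one called there (21.3% of all genes fell). All 4 fell in HOXB13ko against Control in the moderated test: SHARPIN, and FLNA, DOK1 and ITGB1BP1, which were named after their values were seen (16.4% of all genes fell). The calls of SHARPIN, DOK1 and ITGB1BP1 were each lost in 4 of the 12 fits without a library, to an adjusted p of 0.0911 and 0.108 without Control replicate 2 and of 0.106 without HOXB13ko replicate 2. Of 12 membrane partners 10 had values, 3 of which rose and 3 of which fell in LV-MEIS1 (23.2% and 21.3% of all genes). LRP1, an endocytic receptor, rose from 15.7 ± 0.28 to 43.4 ± 10.3 CPM (1.41 ± 0.13, treat adjusted p = 0.000362) and was at 17.9 ± 1.03 and 12.8 ± 0.33 CPM in the knockout-labelled groups. SLC3A2, the CD98 heavy chain that binds beta-integrin tails, was at 81.6 ± 4.92, 57.7 ± 1.89, 310 ± 16.8 and 317 ± 29.9 CPM in the 4 groups. Its rise in HOXB13ko was 1.92 ± 0.07 (treat adjusted p = 1.15e-08). Of 13 trafficking genes 11 had values, and RAB5A, RAB11A and RAB21 rose in LV-MEIS1, 3 of 11 against 23.2% of all genes, and none fell. RAB11A, which marks recycling endosomes, rose by 0.26 ± 0.05 (moderated adjusted p = 0.000585), and the other two were named after their values were seen. The RAB5A call was lost with only these groups in the fit (adjusted p = 0.0908) and in 4 of the 12 fits without a library (up to 0.116, without LV-MEIS1 replicate 2).

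With MEIS1 added to the pool labelled HOXB13ko, 0 genes of these 7 lists passed the moderated test, which called 0.0502% of all genes. At an unadjusted p under 0.05 (14.8% of all genes) it held 1 further integrin subunit, 6 ligands, 2 hemidesmosome genes, 2 adhesion complex genes, 0 inhibitors, 4 membrane partners and 2 trafficking genes, and treat held 0 in each list. The medians of the 7 lists lay between -0.13 and 0.09.

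**Figure D5:**
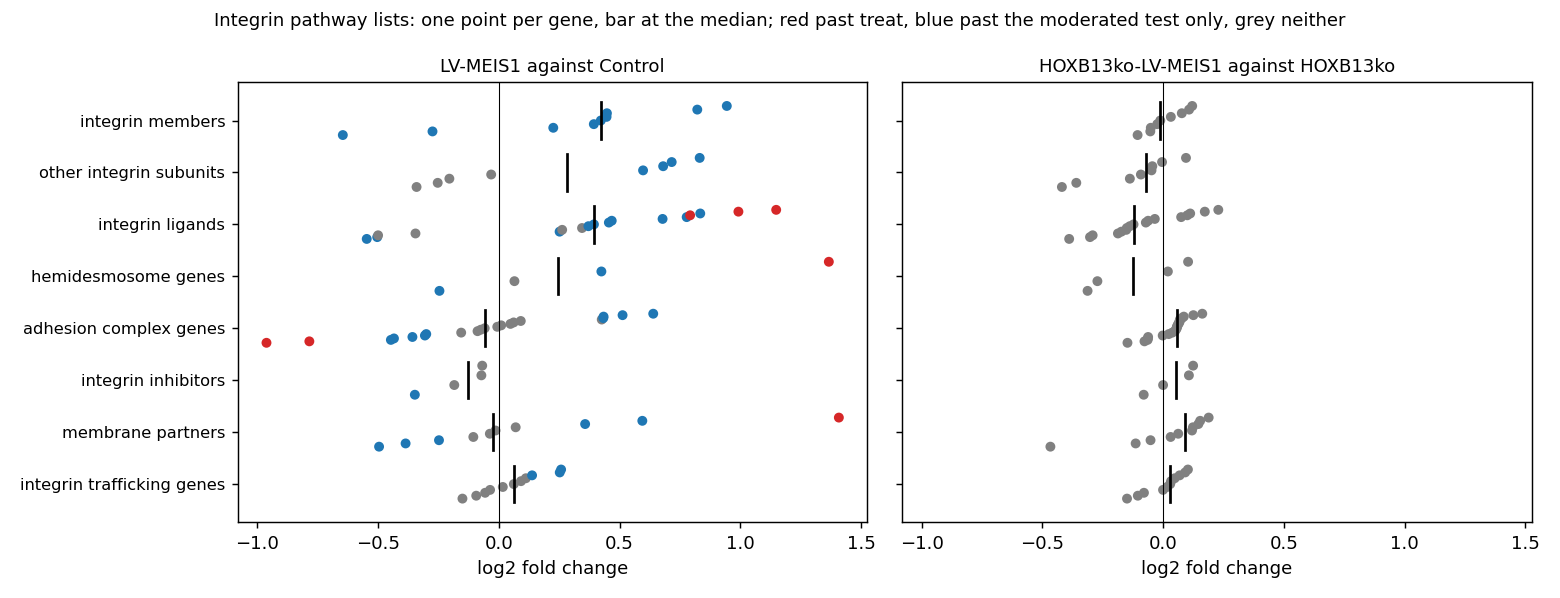
Log2 fold change (x axis) of each measured gene in 8 lists (y axis), with the list median as a bar, in LV-MEIS1 against Control (left) and HOXB13ko-LV-MEIS1 against HOXB13ko (right). Red points passed treat, blue points the moderated test only, and grey points neither. All points on the right are grey, whereas on the left 7 of the 9 subunits followed here are blue and above 0.

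Some cell type markers also differed between the groups. The summed level of the 7 luminal markers was 1756 to 1894 CPM in Control, 1644 to 1716 in LV-MEIS1, 1740 to 1788 in HOXB13ko and 1666 to 1771 in HOXB13ko-LV-MEIS1. HOXB13 is 1 of the 7, so its own change is part of each sum. In LV-MEIS1 against Control 0 of the 7 rose and 2 fell in the moderated test (23.2% and 21.3% of all genes), KLK3 (-0.74 ± 0.07, adjusted p = 1.48e-06) and HOXB13 (-0.37 ± 0.07, 0.000493). In HOXB13ko against Control 2 of the 7 rose and 3 fell in the moderated test (16.5% and 16.4% of all genes). KRT19 was lower (-1.13 ± 0.09, treat adjusted p = 0.00105), as were KRT8 (-0.42 ± 0.07, moderated adjusted p = 0.000515) and KLK3 (-0.40 ± 0.07, 0.000845). TMPRSS2 (0.37 ± 0.08, moderated adjusted p = 0.00389) and HOXB13 itself (0.74 ± 0.07, 2.14e-06) were higher. TMPRSS2, KRT8 and KLK3 were named after their values were seen. The 4 measured stromal markers summed to between 34.9 and 44.7 CPM in all libraries, and none of the 4 was at 0 in any group's mean. VIM fell by 1.64 in LV-MEIS1 (SE 0.16, treat adjusted p = 0.000246). ACTA2 (-0.62 ± 0.12, moderated adjusted p = 0.000749) and PDGFRB (-1.28 ± 0.21, 0.000217) fell too, so that 3 of the 4 stromal markers fell there and COL1A1 rose. In HOXB13ko against Control, 2 of the 4 stromal markers rose and 1 fell in the moderated test (16.5% and 16.4% of all genes). In HOXB13ko-LV-MEIS1 against LV-MEIS1, 3 of the 4 stromal markers rose and 1 fell in the moderated test (24.0% and 26.1% of all genes). ACTA2 (1.19 ± 0.12, treat adjusted p = 0.00187) and PDGFRB (1.30 ± 0.21, 0.0322) were higher, whereas COL1A1 fell (-0.98 ± 0.08, treat adjusted p = 0.00345). PDGFRB was at 0.266 ± 0.07 CPM in LV-MEIS1, and its call was lost with a pseudocount of 1 (adjusted p = 0.368), under quantile normalisation (0.22) and in 5 of the 12 fits without a library (up to 0.128, without HOXB13ko-LV-MEIS1 replicate 1). The part of these markers in the integrin results was not tested.

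The genes whose levels followed ITGB1 most closely over the 12 libraries, among genes that averaged 5 CPM or more, were TPD52 (Pearson r = 0.988), SKAP2 (0.985) and CASC4 (0.979). For ITGB8, the subunit with the widest range of group means on the log2 scale (1.33), they were SEMA3C (0.979), LGALSL (0.974) and MOK (0.972). SEMA3C, for instance, was at 38.6 ± 4.69, 54.2 ± 0.78, 16.4 ± 1.23 and 16.3 ± 1.51 CPM in the 4 groups. These values describe 12 libraries that share 4 lines, and they were picked as the highest among all genes.

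Reads were assigned without regard to strand. Exons of ITGA5, ITGA6, ITGAV, ITGB1 and ITGB8 share between 48 and 401 bases with long noncoding genes on the opposite strand, none of which had a value of its own. Within these shared bases, reads of a gene and its antisense partner cannot be told apart.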

How the data were processed

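RNA was measured in 12 libraries of CWR22Rv1 derivatives, 4 groups of 3, with groups and replicate numbers taken from the sample labels. Poly-A RNA was sequenced as single-end reads from a stranded kit. The submitters' processing notes name CASAVA 1.8, Trimmomatic 0.38, kallisto 0.43.1 and edgeR 3.22.2. The deposited values are CPM: the authors assigned reads to GRCh38 transcripts without using strand, summed estimated counts to genes, removed genes with low counts and normalised the libraries. Each file lists 13993 rows by symbol, of which 42 exact repeats were left out. Listed CPM summed to between 940564 and 992328 per library. Depth was estimated from the steps between low values, and since only 47.5% to 60.6% of values under 1 CPM lay within 0.1 of a whole multiple of that step, whole reads could not be recovered, so a count test was not run. For HOXB13ko-LV-MEIS1 replicate 2 the step could also be read as smaller, so its depth is the least certain.

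Log2(CPM + 0.5) was fitted in limma 3.58.1 (R 4.3.3) with 1 mean per group over 12 libraries and a trended prior. Each comparison was tested against no change (moderated test) and against a 1.5-fold change (treat), with Benjamini-Hochberg adjustment over all 13951 genes and a threshold of 0.05. The fold changes understate those of low genes. Treat takes the place of the count test of the study, which used the same fold limit. The script was tested on simulated data. Ratios of partner subunits were compared with two-sided exact permutation tests in SciPy 1.17.1. Gene positions and transcript lengths came from GENCODE 44 (GRCh38), and CCN1 was found under its older symbol CYR61. Beside the subunits, the genes named were MEIS1, HOXB13, the genes of each list that passed treat between any pair of groups compared, the gene with the lowest p in LV-MEIS1 against Control where a list had none, and the 3 genes most like ITGB1 and ITGB8. Exceptions are marked in the text. One listed luminal marker is not reported here. The subunits and lists were chosen with earlier results of these data known. Alternatives changed the pseudocount, a filter on low values, the scaling, the samples in the fit, a block for replicate number, the fold limit and each library in turn.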

Additional observations from a re-analysis of the deposited data

Results flagged for a closer look

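The change with MEIS1 differed between the pairs of lines with and without the knockout label for 8 of 9 integrin subunits. This was limma's moderated test of the difference itself, which called 34.2% of all genes. The test called 44.5% of all genes in LV-MEIS1 against Control and 0.0502% in the knockout-labelled pair. With 1 line or pool per group, an effect of MEIS1 cannot be told apart from other differences between lines. In log2 fold change the difference was 0.4461 for ITGA2, 0.714 for ITGA5, 0.4984 for ITGAV, 0.3254 for ITGB1, 0.968 for ITGB4 and 0.5276 for ITGB8. It was -0.6782 for ITGA6 and -0.3523 for ITGB5. None of the 8 passed treat. The ITGB8 call was lost in 7 and the ITGB5 call in 2 of the 12 fits that left out a library, and that of ITGB8 also under quantile normalisation. Groups of 3 libraries were not searched for single outlying libraries.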

How the results depend on the processing

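The integrin results were recomputed in 9 other ways and in 12 fits that each left out 1 library, and every integrin change that had passed the moderated test kept its direction in all of them. In LV-MEIS1 against Control, 7 to 9 of 9 subunits passed without a library, in HOXB13ko against Control 6 to 7, in HOXB13ko-LV-MEIS1 against HOXB13ko 0, in HOXB13ko-LV-MEIS1 against LV-MEIS1 7, and in the difference of the MEIS1 effects 6 to 8. The number that passed treat did not change without a library, and 1 subunit passed it in LV-MEIS1 against Control when libraries were scaled to an equal sum of CPM. When the 1.5-fold limit was instead applied to the calls of the moderated test, a looser rule by construction, 3, 3, 5 and 3 subunits passed in LV-MEIS1 and in HOXB13ko, each against Control, in HOXB13ko-LV-MEIS1 against LV-MEIS1 and in the difference, and 1636, 806, 2239 and 1858 of all genes. With MEIS1 added to the pool labelled HOXB13ko it called 5 genes. There treat called 2 genes in place of 1 with a pseudocount of 0.1, with the replicate block and with only the groups compared, and 1 to 2 without a library. Without a library the moderated test called 3 to 22 genes there, 22 without LV-MEIS1 replicate 1 and 3 without HOXB13ko-LV-MEIS1 replicate 3, against 7. In HOXB13ko against Control it called 2833 to 5243 genes, the fewest without HOXB13ko replicate 3, against 4590. The cause was not tested.

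Directions turned only for changes near 0 that had passed no test. In HOXB13ko-LV-MEIS1 against HOXB13ko, quantile normalisation gave log2 fold changes of 0.0097 for ITGA3 and 0.0688 for ITGB4. In that comparison, leaving out a library gave -0.1103 to 0.0202 for ITGA2, -0.0694 to 0.0542 for ITGA3, -0.0133 to 0.1098 for ITGA6, -0.0938 to 0.0123 for ITGAV and -0.1356 to 0.0443 for ITGB4. A pseudocount of 1 gave -0.0003 for the log2 ratio of ITGAV to ITGB1 in LV-MEIS1 against Control. Under the other scalings the median over all genes shifted by no more than 0.0386 on the log2 scale.

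The labels number the replicates 1 to 3 in each group, with nothing to tie equal numbers together. Deviations from the group means correlated at -0.297 to 0.227 between libraries of equal number, 2 of 18 pairs being over 0.1, and at -0.374 to 0.37 between the others. Equal numbers thus did not mark matched libraries. LV-MEIS1 replicate 2 was at 0.37 with HOXB13ko replicate 3 and at -0.374 with HOXB13ko replicate 1, and Control replicate 1 was at 0.329 with HOXB13ko replicate 3. No fit allowed for a factor shared by libraries of unequal number, and its part in the results was not tested. With the replicate block, these calls were lost: ITGA3 in LV-MEIS1 against Control (adjusted p = 0.0559), ITGB1 in HOXB13ko against Control (0.0744), ITGB8 in the difference (0.0561), PARVB, LAMB1 and RAB5A in LV-MEIS1 against Control (0.0719, 0.0715 and 0.0513), and ITGA2B and LAMB2 in HOXB13ko-LV-MEIS1 against LV-MEIS1 (0.0585 and 0.0843). None of the other gene calls that were refitted changed with the block. The difference of the MEIS1 effects uses all groups and had no fit with only the groups compared, and the ratios were recomputed with other pseudocounts only. Depth limits ITGB4, ITGA6 and ITGB8 most, whose values rest on the fewest reads.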
